A study of Mus musculus with 17 samples.

Results

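The loci described here are 31 short piRNA loci of the mouse testis, each named by a chromosome number and a cytogenetic band and each under 10000 nt in the deposited size column. They were taken from 100 band-named loci, which with 114 loci named after genes make up the 214 piRNA loci of the series, among 38207 measured features. A further 59 band-named loci were at or above the size limit, and 10 short ones were left out by name. Those 10 had been singled out with small RNA and precipitate results of the same libraries in view, so how the 31 compare with them is partly fixed by the choice. The same holds for the levels, fold changes and numbers of calls of the 31 themselves, in both comparisons below. Just inside the limit lay 6-qF3-1063 with 9875 nt and 17-qC-59 with 9883 nt, and just outside it 4-qB3-639 with 10339 nt and 10-qB5.1-221 with 10400 nt.

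Small RNA of 15 to 50 nt was sequenced from Mael-/- testis and from wild-type testis of the 129SvJae strain, with 2 libraries of each genotype, called a and b. RNA bound in wild-type testis was precipitated with anti-MAEL (2 libraries of long RNA, and 1 each of RNA selected at 50 to 150 nt and at 15 to 50 nt) and with rabbit IgG (1 library of long RNA). No label gives an age or ties the libraries of a group to different animals, and the p-values below therefore reflect library-to-library spread, which may be technical. Total counts were 21884714 and 4831638 in Mael-/- small RNA, against 44416966 and 7776989 in wild-type small RNA. Of the long-RNA precipitates, those with anti-MAEL had totals of 5747210 and 10863053 and that with IgG 7785650. The totals of the size-selected anti-MAEL libraries were 68922710 (50 to 150 nt) and 172728187 (15 to 50 nt). The mRNA and ribosome footprint tables held 0 rows for piRNA loci and are not used here. Of 37991 transcript IDs, 0 matched the reference tables, so neither the Mael transcript, as a check of the genotypes, nor markers of the testis cell types were analysed here.

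piRNAs are small RNAs that guide PIWI proteins to matching transcripts in germ cells. In the mouse testis most of them come from long single-stranded precursor RNAs that are transcribed from intergenic clusters in meiotic cells and then cut into many piRNAs. MAEL, the Maelstrom protein, is a germ cell factor found in the granules where piRNA proteins gather, and it is needed for transposon silencing and for male fertility.

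The 31 loci ranged from 122 nt (1-qE2.3-2) to 9883 nt, with a median of 5363 nt and an interquartile range of 4000.5 to 8625 nt. The long band-named loci had a median of 27857 nt. The 31 loci lay on 12 chromosomes by their names, and 13 of them shared one of 6 bands with another of the 31. The band 13-qA5 held 13-qA5-156, 13-qA5-703 and 13-qA5-967. The other shared bands were 17-qC (17-qC-59 and 17-qC-935), 8-qA4 (8-qA4-155 and 8-qA4-332), 1-qD (1-qD-2017 and 1-qD-4525), 5-qG2 (5-qG2-950 and 5-qG2-2301) and 6-qC3 (6-qC3-100 and 6-qC3-6258). That they lie between genes could not be checked, because no coordinates come with the names. One of them, 5-qG2-950, had counts within 0.05 log2 units of those of the transcript ENSMUST00000133798 (3815 nt) in all 9 libraries, so that its reads and those of the transcript cannot be told apart and its values are uncertain.

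In wild-type testis the small RNA of these loci spanned a wide range per length. Levels are given as CPM, counts relative to the library total, and densities as CPM per kb of locus. Density in wild type ran from 0.800 at 13-qA5-156 to 2856 at 8-qC5-8200, with a median of 181.6, and the median in Mael-/- was 97.7. The long band-named loci had medians of 145.4 CPM per kb in Mael-/- and 177.5 CPM per kb in wild type. The wild-type medians of short and long loci thus lay close together, although this was not tested. Gene-named loci had medians of 14 CPM per kb in Mael-/- and 6.06 CPM per kb in wild type.

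A few loci carried most of this small RNA. At 8-qC5-8200 the level was 9208 and 6591 CPM in Mael-/- libraries a and b, against 14689 and 13626 CPM in wild type. At 4-qB3-277 it was 9846 and 8938 CPM in Mael-/-, against 13299 and 13093 CPM in wild type. Both Mael-/- libraries lay below both wild-type libraries at each of these loci. The 4 leading loci of each genotype held 54.6% of the counts of the 31 in Mael-/- and 54.5% in wild type. These were not the same 4 loci, since 13-qB1-1517 was among those of Mael-/- and 8-qE1-3748 among those of wild type. The locus 8-qC5-8200 took 17.7% of them in Mael-/- and 20.04% in wild type, and 4-qB3-277 took 21.1% in Mael-/- and 18.7% in wild type, so that the first and second places were exchanged. By density in wild type the order was 8-qC5-8200, then 4-qD3-2082 with 1940 CPM per kb, 4-qB3-277 with 1583 CPM per kb and 13-qB1-1517 with 839 CPM per kb.

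**Figure D1:**
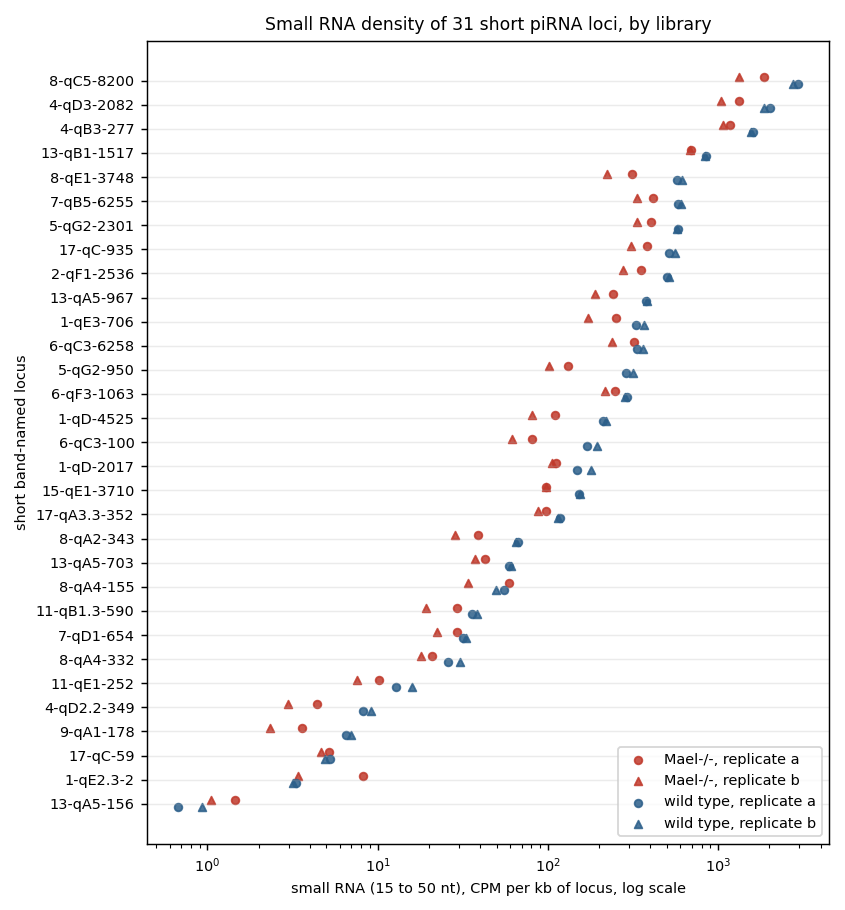
Small RNA density (CPM per kb of locus, log axis) at each of the 31 loci in each of the 4 small RNA libraries, with Mael-/- and wild-type libraries as separate symbols and loci in order of wild-type density. The loci run from 0.800 CPM per kb at 13-qA5-156 to 2856 CPM per kb at 8-qC5-8200 in wild type. At 27 loci both Mael-/- points lie below both wild-type points, a count not made over all features on these unscaled values.

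Together the 31 loci took 4.90% and 4.0% of all small RNA counts in Mael-/- libraries a and b, against 7.08% and 7.05% in wild type. The means were 4.45% ± 0.638 in Mael-/- and 7.07% ± 0.0147 in wild type (SD, n = 2 libraries each). Of the counts at piRNA loci alone, they held 6.18% ± 0.460 in Mael-/- and 8.53% ± 0.0392 in wild type. Both Mael-/- libraries lay below both wild-type libraries on either base. A summed share of this kind was not tested, and in a whole tissue fewer cells of a type and less RNA per cell cannot be told apart.

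The genotype comparison asked how small RNA changed without MAEL. Of the 30 loci that passed the filter on low counts, 6 fell and 0 rose in Mael-/- testis (edgeR quasi-likelihood test, Benjamini-Hochberg adjusted p under 0.05 over 9906 features). Over all features tested, 3.49% were called lower and 3.82% higher. At an unadjusted p under 0.05 the counts of loci were 29 lower and 0 higher, against 12.3% lower and 17.2% higher of all features. DESeq2 called 27 loci lower and 0 higher, against 10.1% lower and 6.96% higher of the features it gave an adjusted p. The log2 fold changes of the 30 loci were all below 0, from -2.51 to -0.42, with a median of -1.80 and an interquartile range of -1.97 to -1.53, while the median of all features was 0.15. On the scaled values, both Mael-/- libraries lay below both wild-type libraries at 29 of the 30 loci, against 25.5% of all features.

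The size of the fall depended on the scaling. TMM scaling, which takes the bulk of features as unchanged, moved Mael-/- down against wild type by 1.22 log2 units. With library totals instead, the median of the 30 loci was -0.64, 29 of them were below 0, and 15 fell, among them all 6 that fell with TMM. Over all features that scaling gave 2449 higher and 139 lower (1.4%), against 378 higher and 346 lower with TMM. Single libraries also moved these values. Without Mael-/- library a the median with TMM was -2.73 and 29 loci were called lower, against 10.4% of all features. Without Mael-/- library b it was -1.20 with 27 called, against 5.69% of all features. Without wild-type library a 0 loci and 0.487% of all features were called lower, and without wild-type library b only 4-qD2.2-349 among the loci and 1.56% of all features.

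The 6 loci that fell had wild-type levels from 39.1 CPM (4-qD2.2-349) to 1678 CPM (6-qC3-100) on average. At 5-qG2-950, whose reads cannot be told apart from those of the transcript named above, there were 519.8 and 402 CPM in Mael-/-, against 1141 and 1264 CPM in wild type, which is 5.69-fold lower after scaling (log2 fold change -2.51, SE 0.577, adjusted p = 0.0302 by edgeR's quasi-likelihood test). At 6-qC3-100 there were 749.7 and 570.0 CPM in Mael-/-, against 1559 and 1796 CPM in wild type, and its log2 fold change was -2.47, SE 0.587 (adjusted p = 0.0342 by edgeR's test). At both loci each Mael-/- library lay well below each wild-type library before any scaling. The level at 1-qD-4525 was 523 and 379.8 CPM in Mael-/-, against 989 and 1042 CPM in wild type, and its log2 fold change was -2.29 (adjusted p = 0.0412 by edgeR's test). The groups stood apart there as well, with the Mael-/- libraries differing from each other more than the wild-type ones.

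The other 3 were less abundant. At 4-qD2.2-349 the level was 19.97 and 13.5 CPM in Mael-/-, against 37.0 and 41.3 CPM in wild type, and its log2 fold change was -2.31, SE 0.501 (adjusted p = 0.0247 by edgeR's test). At 9-qA1-178 it was 35.5 and 23.0 CPM in Mael-/-, against 64.0 and 68.7 CPM in wild type, and fell by 2.27 (edgeR, adjusted p = 0.0302). At 8-qA2-343 it was 125 and 90.9 CPM in Mael-/-, against 213.4 and 208 CPM in wild type, and fell by 2.09 (edgeR, adjusted p = 0.0439). No group overlapped at these loci, and in each the b library of Mael-/- was the lowest of the 4. The more abundant 8-qE1-3748, with 2972 and 2120 CPM in Mael-/- against 5515 and 5883 CPM in wild type, had a log2 fold change of -2.28 ± 0.633 and missed the threshold (edgeR, adjusted p = 0.0522).

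Loci of one band did not have the same values. In 5-qG2, 5-qG2-950 fell by 2.51 on the log2 scale, whereas 5-qG2-2301, with 2158 and 1778 CPM in Mael-/- against 3094 and 3062 CPM in wild type, had a log2 fold change of -1.79 (edgeR, adjusted p = 0.0759). In 6-qC3, 6-qC3-100 fell by 2.47 and 6-qC3-6258 had -1.45, with 2840 and 2123 CPM in Mael-/- against 2982 and 3233 CPM in wild type. In 1-qD, 1-qD-4525 fell by 2.29 and 1-qD-2017 had -1.76, with 264 and 249 CPM in Mael-/- against 353 and 426 CPM in wild type. In 8-qA4, 8-qA4-155 had -1.27 and 8-qA4-332 had -1.67, and in 17-qC, 17-qC-59 had -1.22 and 17-qC-935 had -1.78. The standard errors of the values in these 5 bands ran from 0.464 (17-qC-59) to 0.595 (6-qC3-6258). Differences between loci of a band were not tested.

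Some of the scarcer loci had log2 fold changes nearer to 0 than the median of -1.80. At 13-qA5-156 there were 8.04 and 5.80 CPM in Mael-/-, against 3.74 and 5.14 CPM in wild type, and its log2 fold change was -0.42, SE 0.464 (adjusted p = 0.560 by edgeR's test). Its unscaled values were higher in both Mael-/- libraries, and with library totals its log2 fold change was 0.67, so no direction is given for it. Its band neighbour 13-qA5-967, with 967 and 764 CPM in Mael-/- against 1513 and 1531 CPM in wild type, had a log2 fold change of -1.95 (edgeR, adjusted p = 0.0582), and 13-qA5-703 had -1.73 (adjusted p = 0.0621). At 17-qC-59 there were 51.1 and 45.9 CPM in Mael-/-, against 52.1 and 48.5 CPM in wild type, with a log2 fold change of -1.22. Its unscaled groups overlapped. At 8-qA4-155 the level was 94.5 and 54.6 CPM in Mael-/-, against 88.7 and 80.4 CPM in wild type, with a log2 fold change of -1.27, and the Mael-/- libraries lay on either side of the wild-type pair. The level of 7-qD1-654 was 153 and 116 CPM in Mael-/-, against 166 and 172 CPM in wild type (log2 fold change -1.46).

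The shortest locus, 1-qE2.3-2 with 122 nt, did not pass the filter. It held 22 and 2 counts in Mael-/- small RNA and 18 and 3 counts in wild-type small RNA, too few to compare. Among the abundant loci, 13-qB1-1517 with 3693 and 3646 CPM in Mael-/- against 4524 and 4472 CPM in wild type had a log2 fold change of -1.47, and 4-qD3-2082 with 3743 and 2921 CPM in Mael-/- against 5687 and 5263 CPM in wild type had -1.86. At 7-qB5-6255 there were 3223 and 2600 CPM in Mael-/-, against 4538 and 4766 CPM in wild type, and the log2 fold change was -1.81. None of these 3 passed the test, although no groups overlapped.

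For comparison, the 59 long band-named loci had a median log2 fold change of -1.45, with 54 below 0 and 4 called lower. The 10 short loci left out had a median of -2.59 and 8 called lower, and the 114 gene-named loci had a median of -0.016, with 15 called higher and 10 lower. The differences between these lists were not tested, and that from the short loci left out is partly fixed by the choice.

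**Figure D2:**
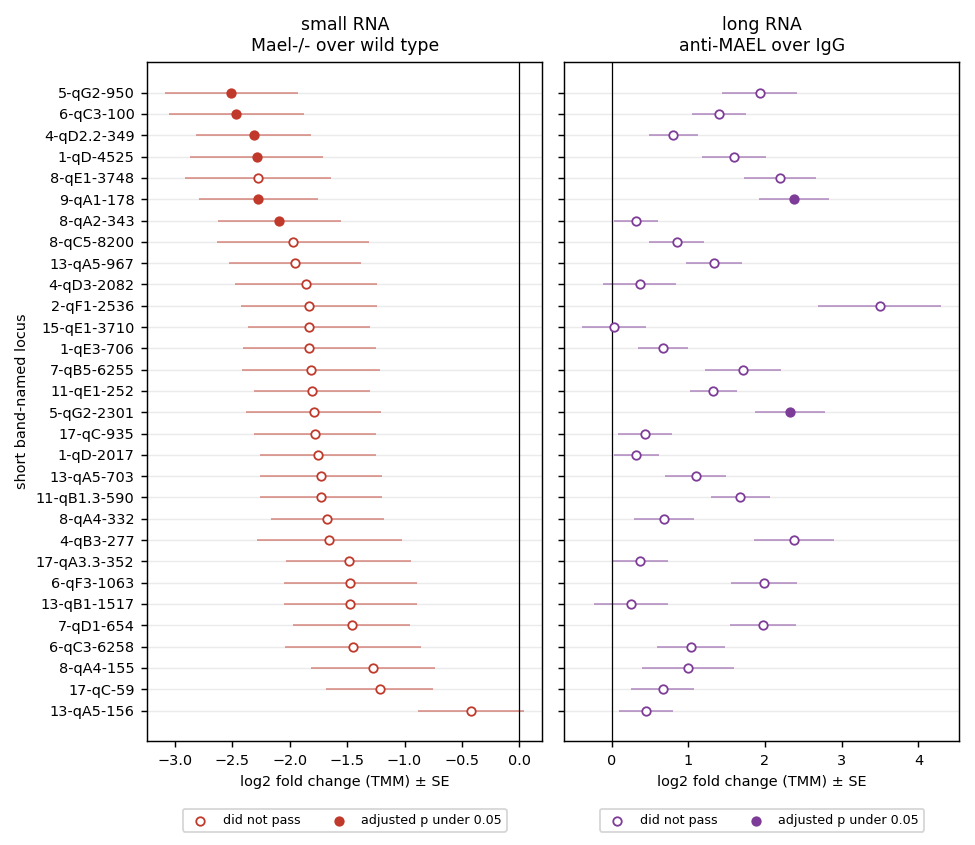
Log2 fold changes with TMM scaling and their standard errors for the 30 loci that passed the filters, small RNA of Mael-/- over wild type on the left and long RNA of anti-MAEL over IgG on the right, with filled points at an adjusted p under 0.05. All 30 points lie below 0 for small RNA (with library totals 1 of them lies above 0) and all above 0 for long RNA (with library totals 4 lie below 0), and 9-qA1-178 is the only locus filled on both sides.

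The antibody comparison asked which long RNAs came down with MAEL. Of the 30 loci that passed the filter, 2 were enriched by anti-MAEL over IgG and 0 were depleted (edgeR quasi-likelihood test, Benjamini-Hochberg adjusted p under 0.05 over 16066 features). Over all features, 1.28% were called higher and 0% lower. The count of 2 is too small to read as a property of the short loci. At an unadjusted p under 0.05 the counts of loci were 18 higher and 0 lower, against 6.76% higher and 0.865% lower of all features. DESeq2 called 9 loci higher and 0 lower, against 2.29% higher and 0% lower of the features it gave an adjusted p. All 30 log2 fold changes were above 0, with a median of 1.06 and an interquartile range of 0.50 to 1.88, while the median of all features was 0.017. The TMM factors of anti-MAEL minus IgG came to -0.34 log2 units, which moves the anti-MAEL values up. With library totals the median was 0.68, 4 loci lay below 0 and 0 were called, against 0.629% of all features called higher. The single IgG library is assumed to vary like the anti-MAEL pair. With only anti-MAEL library b the median was 0.66, and with only library a it was 1.39, in both cases without a test.

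The locus 9-qA1-178 had 173 and 151 CPM with anti-MAEL, against 40.8 CPM with IgG, and its log2 fold change was 2.38, SE 0.460 (adjusted p = 0.0429 by edgeR's test). At 5-qG2-2301 there were 149 and 123 CPM with anti-MAEL, against 35.7 CPM with IgG, giving 2.33, SE 0.456 (adjusted p = 0.0445 by edgeR's test). Before scaling, the anti-MAEL mean was 3.96 times the IgG level at 9-qA1-178 and 3.81 times at 5-qG2-2301, and no anti-MAEL library came near IgG. The widest gap was at 2-qF1-2536, with 839 and 714 CPM with anti-MAEL against 90.7 CPM with IgG. Its log2 fold change was 3.50 ± 0.804, and it missed the threshold (edgeR, adjusted p = 0.0789). This locus alone held 17.6% of the anti-MAEL counts of the 31 loci.

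Next came loci rich in small RNA. The level at 4-qB3-277 was 254 and 201 CPM with anti-MAEL against 57.9 CPM with IgG (log2 fold change 2.38; edgeR, adjusted p = 0.0684). At 8-qE1-3748 it was 159 and 126 CPM with anti-MAEL against 41.2 CPM with IgG (log2 fold change 2.19; edgeR, adjusted p = 0.0636). The richest locus, 8-qC5-8200, had 75.5 and 71.8 CPM with anti-MAEL against 53.2 CPM with IgG (log2 fold change 0.85). For 7-qB5-6255 the levels were 223 and 174 CPM with anti-MAEL against 80.5 CPM with IgG (log2 fold change 1.71). Some further loci rich in small RNA stood close to the IgG level. At 13-qB1-1517 there were 266 and 312 CPM with anti-MAEL, against 309 CPM with IgG, and at 4-qD3-2082 259 and 310.0 CPM with anti-MAEL, against 282 CPM with IgG. The IgG value lay between the anti-MAEL values at both.

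The lowest ratio was at 15-qE1-3710, with 179 and 250.5 CPM with anti-MAEL against 264 CPM with IgG, which gave log2 fold changes of 0.027 with TMM and -0.30 with library totals. Also low were 8-qA2-343, with 35.7 and 45.2 CPM with anti-MAEL against 41.0 CPM with IgG (log2 fold change 0.31), and 1-qD-2017, with 62.5 and 88.0 CPM with anti-MAEL against 75.5 CPM with IgG (0.32). At these loci the groups overlapped or IgG was the highest. The locus 8-qA2-343 was among the 6 whose small RNA fell. Unscaled, both anti-MAEL libraries lay above IgG at 24 of the 31 loci. The same count was not made over all features, so it is not read as enrichment of the short loci.

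**Figure D3:**
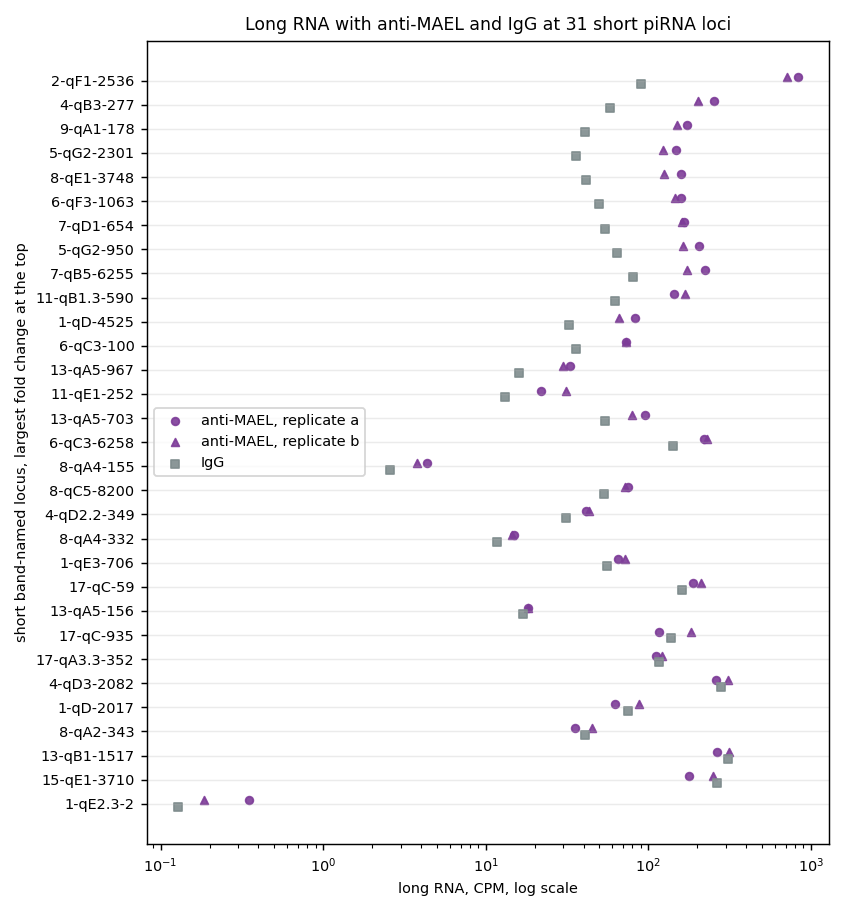
Long-RNA level (CPM, log axis) at each of the 31 loci in the 2 anti-MAEL libraries and the IgG library. The locus 2-qF1-2536 reaches 839 and 714 CPM with anti-MAEL against 90.7 CPM with IgG, while 15-qE1-3710 has 179 and 250.5 CPM with anti-MAEL against 264 CPM with IgG.

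The median log2 fold change of the short loci in this comparison was 1.06, against 2.85 for the long band-named loci, of which 4 of 59 were called higher, and 1.86 for the 10 short loci left out, of which 4 were called higher. Per length, the short loci had medians of 16.4 CPM per kb with anti-MAEL and 10.3 CPM per kb with IgG, and the long ones 23.2 CPM per kb with anti-MAEL and 4.001 CPM per kb with IgG. The IgG level per length was thus higher at the short loci. Together the short loci took 0.444% and 0.438% of long-RNA counts with anti-MAEL, against 0.243% with IgG (95% exact binomial interval 0.239% to 0.246%, counting error only). Of the counts at piRNA loci, they took 6.80% ± 0.731 (SD, n = 2) with anti-MAEL and 14.7% with IgG. The direction of the share therefore depended on what it was taken of. The density of both long and small RNA at a locus varies with how its limits were drawn. Across the 30 loci, the log2 fold change of anti-MAEL over IgG and that of Mael-/- over wild type had a Pearson r of -0.28 and a Spearman rho of -0.19. Log2 density of wild-type small RNA and of anti-MAEL long RNA had r of 0.59 and rho of 0.52 across 31 loci, which share the same sizes in both densities.

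Most leading loci of the small RNA library made with anti-MAEL differed from those of testis small RNA, although 7-qB5-6255 was among the richest in both. In the single anti-MAEL library of 15 to 50 nt, the 31 loci took 1.23% of all counts and 4.55% of counts at piRNA loci, against the wild-type testis shares of 7.07% and 8.53%. This library has no IgG partner of the same size, no replicate and no test. Its leading locus was 6-qF3-1063, with 1640 CPM in the precipitate (95% exact binomial interval 1634 to 1646, counting error only) against 2840 ± 68.5 CPM in wild-type testis (SD, n = 2). Next came 13-qA5-703, with 1441 CPM in the precipitate against 559 ± 10.1 CPM in testis, and 17-qA3.3-352, with 1405 CPM in the precipitate against 1142 ± 20.4 CPM in testis. At 5-qG2-2301 there were 1355 CPM in the precipitate against 3078 ± 22.8 CPM in testis, and at 7-qB5-6255 1103 CPM in the precipitate against 4652 ± 161 CPM in testis. Relative to library totals, only 13-qA5-703 and 17-qA3.3-352 of these were higher in the precipitate. Relative to counts at piRNA loci, 6-qF3-1063 and 5-qG2-2301 were higher there too.

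Some of the loci richest in testis small RNA were far lower there, and others less so. At 8-qC5-8200 the anti-MAEL library of 15 to 50 nt held 119 CPM, against 14157 ± 752 CPM in wild-type testis, 118.6 times lower. At 4-qD3-2082 it held 36.2 CPM, against 5475 ± 299 CPM, and at 4-qB3-277 it held 321 CPM, against 13196 ± 145 CPM. On the log2 scale these differences were -6.88, -7.22 and -5.36, with 0.5 CPM added to both levels. At 8-qE1-3748, also among the richest in wild-type testis, the precipitate held 729.8 CPM against 5699 ± 260.3 CPM in testis (log2 difference -2.96), and at 7-qB5-6255, named above, the difference was -2.08. Differences below -5 were also found at 13-qA5-967 (-6.66), 1-qE3-706 (-5.93), 17-qC-935 (-5.30) and 13-qB1-1517 (-5.09). Over the 31 loci the median was -1.18, with an interquartile range of -4.48 to 0.045.

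Relative to library totals, the precipitate was higher at 8 of the 31 loci, and relative to counts at piRNA loci at more of them. The 8 include 8-qA4-155, with 285 CPM in the anti-MAEL library against 84.5 ± 5.91 CPM in wild-type testis, a log2 difference of 1.75, and 13-qA5-703 with 1.37. At 9-qA1-178 there were 127 CPM in the anti-MAEL library against 66.3 ± 3.29 CPM in wild-type testis (log2 difference 0.93). The long band-named loci had a median of -1.43, gene-named loci -1.14, and all 2495 features with at least 5 CPM in wild type 1.20. Taken relative to counts at piRNA loci, the median of the short loci was -0.040. The locus at this median was the scarce 1-qE2.3-2, with 21 counts in the precipitate and 18 and 3 in wild type. Its levels are near the 0.5 CPM added to both, so this median is uncertain. Across 30 loci this log2 difference and the log2 fold change of anti-MAEL over IgG in long RNA had r of 0.18 and rho of 0.17.

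**Figure D4:**
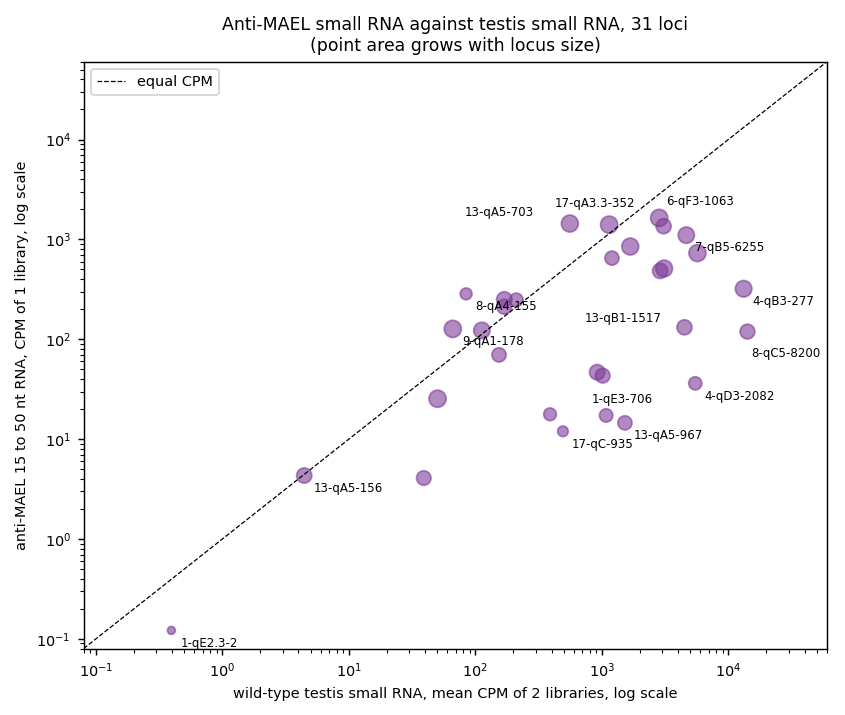
Level of each of the 31 loci in the anti-MAEL library of 15 to 50 nt (1 library) against its mean level in wild-type testis small RNA (2 libraries), both in CPM on log axes, with the line of equal levels and points sized by locus length. The loci 8-qC5-8200, 4-qD3-2082 and 4-qB3-277 lie far below the line at 119, 36.2 and 321 CPM in the precipitate, the likewise abundant 7-qB5-6255 lies nearer to it at 1103 CPM, and 8 loci lie above it.

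In the anti-MAEL library of 50 to 150 nt the 31 loci took 0.391% of counts. The leading loci were 7-qB5-6255 with 697 CPM, 1-qE2.3-2 with 516 CPM, 17-qA3.3-352 with 376 CPM, 13-qA5-703 with 309.8 CPM and 5-qG2-2301 with 296 CPM. The value of 1-qE2.3-2 came from 35560 counts, whereas this locus of 122 nt had 21 counts at 15 to 50 nt, 2 and 2 counts in the anti-MAEL long-RNA libraries and 1 count with IgG. It alone made up 13.2% of the counts of the 31 loci there. Its size lies within the range selected for that library, but whether this accounts for the high count was not tested. The log2 ratio of 50 to 150 nt over 15 to 50 nt was 9.70 at 1-qE2.3-2, 1.83 at 17-qC-935 (918 nt), 0.52 at 4-qD2.2-349 and 0.28 at 9-qA1-178. It was below 0 at the other 27 loci, with a median of -1.53 over all 31 and of -2.32 over the long loci. Relative to counts at piRNA loci the median of the 31 turned to 0.42, so the direction depended on what the levels were taken of.

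Many loci were deposited as several entries, and 73 entries stood for the 31 loci. At 10 loci there was 1 entry and at 21 there were several, up to 7 at 6-qC3-100, and each locus was represented by its fullest entry. It was also the longest entry at 30 loci. Of the 42 other entries, 41 had at least 20 counts in all 4 small RNA libraries, and 31 of these had an unscaled log2 ratio of Mael-/- over wild type within 0.2 of that of the fullest entry. Entries of a locus may count the same reads, which could not be checked without coordinates, and they are not replicates.

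At 6-qF3-1063 the entries differed most. Its fullest entry, of 9875 nt, had an unscaled log2 ratio of Mael-/- over wild type of -0.31. Its entries 6-qF3-1063.1 (5072 nt) and 6-qF3-1063.2 (5458 nt) had ratios of 1.11 and 1.19. The entry 6-qF3-1063.1 held 2749 and 757 counts in Mael-/-, against 2916 and 507 counts in wild type, while the library totals were smaller in Mael-/-. These entries held only 2.27% and 2.07% as many counts as the fullest entry in wild-type library a, but 22.9% as many in the anti-MAEL library of 15 to 50 nt. The entry 4-qD3-2082.3 (1503 nt) held 45.5% of the fullest entry's wild-type counts and its ratio was higher by 0.55. The entry 8-qE1-3748.1 (638 nt) differed by 0.89, at 0.602% of the counts, and 13-qB1-1517.1 and 13-qB1-1517.4 differed by 0.69 and 0.58, at 1.84% and 2.35% of the counts. The only entry whose ratio was lower by more than 0.2 was 9-qA1-178.1, by -0.34.

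At some loci the weight of an entry also differed between precipitate and testis. The entry 11-qB1.3-590.1 held 3.40% of the fullest entry's counts in the anti-MAEL library of 15 to 50 nt and 84.3% in wild-type library a, while 11-qB1.3-590.3 held 97.99% in the anti-MAEL library and 58.1% in wild-type library a. The entry 6-qC3-100.6 held 56.2% in the anti-MAEL library and 99.2% in wild-type library a. The entry 13-qB1-1517.2 held 6.65% in the anti-MAEL library and 45.3% in wild-type library a. These shares describe entries of 3 loci, whose overlap was not checked, and were not tested.

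**Figure D5:**
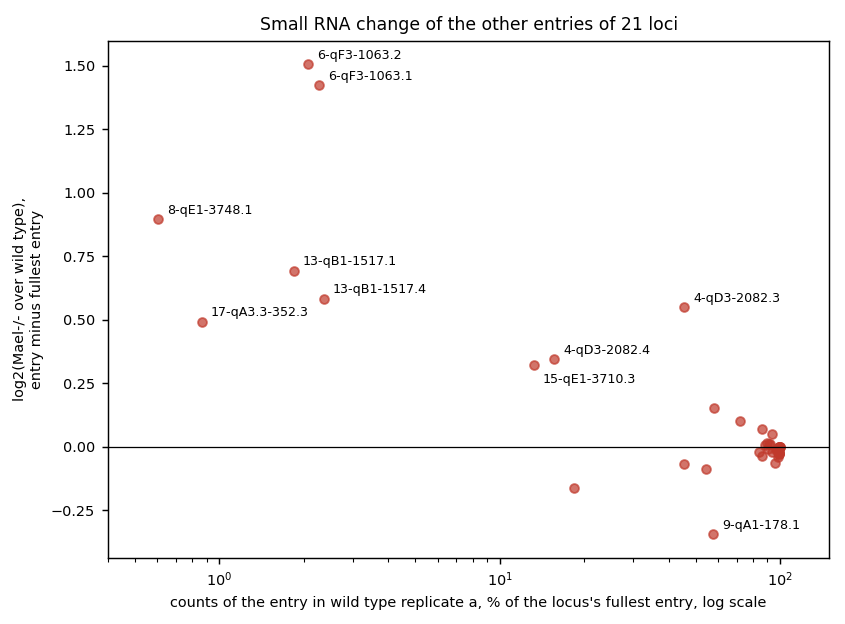
For the 41 further entries of the 21 loci deposited more than once, the unscaled log2 ratio of Mael-/- over wild type minus that of the fullest entry (y axis), against the entry's counts in wild-type library a as a percentage of the fullest entry (x axis, log scale). Most entries lie near 0, and 6-qF3-1063.1 and 6-qF3-1063.2 stand highest, at 1.42 and 1.51 with about 2% of the counts.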

How the data were processed

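The deposited tables hold counts of reads per feature made by the authors, not normalized. Build mm9 and the tools TopHat2 2.0.7, Bowtie2 2.0.6 and CASAVA 1.8 are listed, without roles, in the submitters' processing notes. The use of strand and the handling of reads with several matches are not given in these sources, so counts of overlapping or near-identical features are uncertain. Small RNA kits kept strand and long-RNA kits did not, per the labels' protocols.

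Each locus was represented by its entry with the most counts over the 9 tables used. Differences were tested across all features with edgeR 4.0.16 in R 4.3.3 (quasi-likelihood, TMM, filterByExpr, Benjamini-Hochberg, adjusted p 0.05), with 4 small RNA libraries and no replicate block, and with 3 long-RNA precipitates. Standard errors of edgeR's log2 fold changes were derived from its F statistic, as the absolute log2 fold change divided by the square root of F. DESeq2 1.42.0 was an alternative. The main edgeR fit was tried on simulated counts, and the other settings and steps were not. Log2 ratios of single libraries used a pseudocount of 0.5 CPM, and single libraries have 95% intervals for counting error only. Other steps used pandas 2.3.3, scipy 1.17.1 and numpy 2.4.6 in Python 3.11.15, and figures matplotlib 3.10.9. Libraries of a group differed beyond sampling noise (chi-square per degree of freedom of 49.4 in Mael-/- small RNA, 12.0 in wild-type small RNA and 51.5 in anti-MAEL), so none was merged. Named loci were those called, those highest or lowest in level or fold change, the shortest and longest, those sharing a band and those whose entries differed most. The loci and lists were chosen with earlier results of these data known.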

Additional observations from a re-analysis of the deposited data

How the results depend on the processing

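For small RNA, 6 loci were called lower. The count was 15 with library totals, 3 with median-of-ratios size factors, 2 with no filter, 17 with at least 1 CPM in 2 libraries, 27 with DESeq2 and 16 with TMM factors from piRNA loci alone. Of all features, these settings called lower 139 of 9906, 347 of 9906, 248 of 24188, 518 of 8465, 611 of 6065 and 133 of 9906, in the same order. With the replicate block on letters a and b the count of loci was 29. That fit called 1754 lower and 2318 higher of all 9906 features, against 346 and 378 without the block. The letters correlated at 0.506 in their deviations over all features and at -0.0849 over the short loci, no label says what they mark, and with 2 pairs they were not taken to pair samples. Leaving out 1 library gave 0 to 29, and with library totals, chosen after seeing the data, 24 without Mael-/- library a, 17 without Mael-/- library b, 4 without wild-type library a and 5 without wild-type library b, and of the 6 loci 3 were lost in each of the last 2 fits. No locus was called higher under any of these settings. The median of -1.80 was -0.64 with library totals and -0.66 with TMM over piRNA loci. It ranged from -2.73 to -1.20 on leaving out 1 library, and with library totals it was -0.82 without Mael-/- library a, -0.50 without Mael-/- library b, -0.68 without wild-type library a and -0.59 without wild-type library b. At 13-qA5-156 the sign turned, to 0.67 with library totals and 0.65 with TMM over piRNA loci. Leaving out 1 library gave -1.49 to 0.19 there, and with library totals 0.41 and 0.89 without Mael-/- libraries a and b, and 0.44 and 0.90 without wild-type libraries a and b. With library totals 17-qC-59 had 0.024 without Mael-/- library b and 0.0055 without wild-type library a, and 8-qA4-155 had 0.16 without Mael-/- library b.

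For anti-MAEL over IgG, 2 loci were called higher. The count was 0 with library totals and with summed entries, 6 with size factors and with at least 1 CPM in 2 libraries, 14 with no filter and 9 with DESeq2. Of all features, these settings called higher 101 of 16066, 217 of 16101, 325 of 16066, 298 of 15797, 661 of 26559 and 347 of 15133, in the same order. The main fit called 206 of 16066 higher. With library totals the sign turned at 1-qD-2017 (-0.0050), 13-qB1-1517 (-0.10), 15-qE1-3710 (-0.30) and 8-qA2-343 (-0.018), and at 15-qE1-3710 leaving out an anti-MAEL library gave -0.032 and 0.11. Of small RNA counts, the shares were 6.18% in Mael-/- and 8.53% in wild type relative to piRNA loci, and 7.27% in wild type with summed entries. Of long-RNA counts, they were 6.80% with anti-MAEL and 14.7% with IgG relative to piRNA loci, and 0.596% and 0.327% in the same libraries without the most abundant transcript. The ratio of 15 to 50 nt over testis small RNA had a median of -0.040 relative to piRNA loci, and -1.19 to -1.18 on leaving out a wild-type library. The first of these medians was set by 1-qE2.3-2, which is too scarce to compare. The ratio of 50 to 150 nt over 15 to 50 nt had a median of -1.39 with 5 CPM added and turned to 0.42 relative to piRNA loci. The cause of these shifts was not tested. Single IgG and size-selected libraries and the smallest Mael-/- library, with 4831638 counts, limit the precision.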
